A study of Homo sapiens with 4 samples.

Results

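A set of 10 genes of squamous differentiation and of the S100 family was followed in SAS cells, a human oral squamous carcinoma line, after knockdown of the RNA-binding protein STAU1. The 10 genes were IVL, TGM1, SPRR1A, SPRR1B, SPRR3, S100A2, S100A7, S100A8, S100A9 and TP63. They were named by symbol and matched to the Ensembl identifiers of the count table, which lists 67008 genes, and all 10 were found. The study asked how STAU1 affects the formation of the circular RNA circSNX5, and RNA-sequencing compared 2 libraries of Ctrl cells, which express an shRNA against luciferase (shLuc), with 2 libraries of shSTAU1 cells, which express an shRNA against STAU1. All cells were of WT genotype and had been infected with virus. The labels name the mouse line C3H 10T1/2 as the cell line but give human as the organism, oral cancer as the cell type and SAS cells in the growth protocol, and the libraries were treated as SAS cells. Each group rests on a single shRNA, and neither the labels nor the methods say whether the cells were a clone or a pool, or whether the libraries came from separate cultures, so the p-values measure the spread between these libraries, which may be technical.

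Stratified squamous epithelium is renewed from basal cells that depend on TP63, the transcription factor p63, and on the keratins KRT5 and KRT14. As these cells leave the basal layer, they build a cornified envelope under the plasma membrane from involucrin (IVL) and small proline-rich proteins (SPRR), which transglutaminases such as TGM1 cross-link. Most of these proteins and most S100 calcium-binding proteins are encoded side by side on chromosome 1, in the epidermal differentiation complex. S100A7, S100A8 and S100A9 are induced in inflamed and hyperproliferative epidermis, and S100A8 and S100A9 together form calprotectin, which is also abundant in neutrophils and monocytes.

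Repeat units within these genes are printed here. The identity between related genes is given because it bears on which reads can be counted on which gene. The coding sequences of SPRR1A and SPRR1B, 270 bases each in GENCODE 29, were identical at 96.3% of positions and shared a run of 74 bases without a difference, so shorter reads from that run could belong to either gene. Both genes also carry a tandem unit of 24 bases, found 4 times in each with at most 3 mismatches, and the longer repeat of IVL, 30 bases, was found 22 times between coding bases 493 and 1623 by the same criterion.
SPRR1A and SPRR1B unit: gagccctgccaccccaaggtgcct
IVL unit: cacctggagcagcaggaggggcagctggag
S100A7 and its neighbour S100A7A were 96.1% identical with a shared run of 79 bases, whereas S100A8 and S100A9 were 60.7% identical and shared no run longer than 9 bases. How the authors treated reads that match several genes is not stated.

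Of these genes, 5 also shared a promoter motif that the choice of genes did not use. AP-1, the dimer of FOS and JUN proteins that is known to drive IVL in keratinocytes, binds TGAGTCA, which reads TGACTCA on the other strand. In the RefSeq promoter table (GRCh38.p14, 250 bases before to 50 after the start), which held 9 of the 10 genes, 5 of them had this motif, against 4.95% of all 35116 promoters. For this and the motifs below, a gene counted once if any of its promoters held the motif. The share is per promoter, so the measures differ. SPRR1A, SPRR1B and SPRR3 are also related neighbours and may not be separate cases. Their coding sequences were 96.3% (SPRR1A and SPRR1B) and 85.6% (SPRR1B and SPRR3) identical over the aligned bases. The windows of 30 bases around the AP-1 motif are printed 5′ to 3′ on the strand of the gene, with the motif in capitals.
IVL, chr1:152908412-152908441 (plus strand): gatgcctgtggTGAGTCAggaaggggttag
SPRR1A, chr1:152983962-152983991 (plus strand): ggatggtagtgTGAGTCAtgtgtgacaggt
SPRR3, chr1:153001568-153001597 (plus strand): agggtggacagTGAGTCAggcccaggtgac
SPRR1B, chr1:153031051-153031080 (plus strand): atcacaaaagtTGAGTCAacaggtgggtga
S100A2, chr1:153565878-153565907 (minus strand): ggagtgggctgTGACTCAcaggcatgtcat
The motif began 123, 108, 170, 141 and 52 bases before the start of IVL, SPRR1A, SPRR3, SPRR1B and S100A2. The letters TATAAA, on either strand, were in the promoters of 7 of the 9 genes against 11.5% of all promoters, and AACCGGTT, a motif of GRHL factors, was in none of the 9 against 0.134% of all. A match of letters is a description and no proof of binding. Of the 10 genes, the 2 with the largest fitted values, IVL and S100A2, both held the AP-1 motif, but so did SPRR1B, with a fitted log2 value of -0.27, SPRR1A, with 6 reads in all, and SPRR3, which had no read.

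The libraries held 32206655 to 36301574 counts. STAU1 was measured first as a check of the labels, and had 8362 and 8218 counts in Ctrl against 1449 and 1467 in shSTAU1, a log2 fold change of -2.59 (standard error, SE, 0.13, edgeR quasi-likelihood adjusted p = 0.00103). The 8 markers of squamous epithelium (KRT5, KRT14, KRT6A, KRT17, DSG3, CDH1, EPCAM and TP63) were all read, with a summed level of 7091 to 7512 CPM, the counts scaled to a common library size, in Ctrl and 8619 to 11262 CPM in shSTAU1, where KRT5 rose and DSG3 (2469 and 1732 against 1410 and 1196 counts, adjusted p = 0.0731) did not pass. The 8 myeloid markers summed to 0.327 to 1.04 CPM in Ctrl and 0.736 to 1.44 CPM in shSTAU1, with CD68 and AIF1 at 0 and PTPRC at 1 count in all. The 8 fibroblast markers summed to 17.9 to 22.8 CPM in Ctrl and 10.2 to 11.1 CPM in shSTAU1, mostly COL1A1 (527 and 663 against 273 and 221 counts, log2 fold change -1.35, adjusted p = 0.0360 from edgeR's test, lost without either Ctrl library and without the filter), while COL1A2 went the other way without passing (40 and 55 against 75 and 128 counts, log2 fold change 1.01, adjusted p = 0.185), with THY1 at 0 and COL3A1, DCN and LUM at no more than 1 count in a library. The RNA was from whole cultures, so a change in the share of cells that express a gene and a change per cell cannot be told apart.

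Of the 10 genes, S100A2 rose after STAU1 knockdown, IVL was higher in both shSTAU1 libraries but did not pass the test, TP63, S100A9, S100A7 and SPRR1B overlapped between the groups, and S100A8, SPRR1A, SPRR3 and TGM1 had few or no reads. In all, 6 of the 10 had enough reads to be tested and 1 of these 6 passed an adjusted p of 0.05, in the direction of a rise. Over all 14303 genes tested, 1.13% were called higher and 1.48% lower, or 2.60% in either direction. At an unadjusted p under 0.05, the background was 24.5% of genes, with 12.9% higher and 11.6% lower, and 2 of the 6 (IVL and S100A2) were under it, both higher. Of the 12084 genes to which DESeq2 gave an adjusted p, it called 6.40% higher and 5.59% lower, and of the 10 genes it called 2 higher, again IVL and S100A2. The groups did not overlap in 2 of the 6 tested genes, both higher, and 28.5% of all genes tested had such a pattern in that direction, 28.0% in the other and 56.6% in either. The genes that could not be tested are given by their raw counts.

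**Figure D1:**
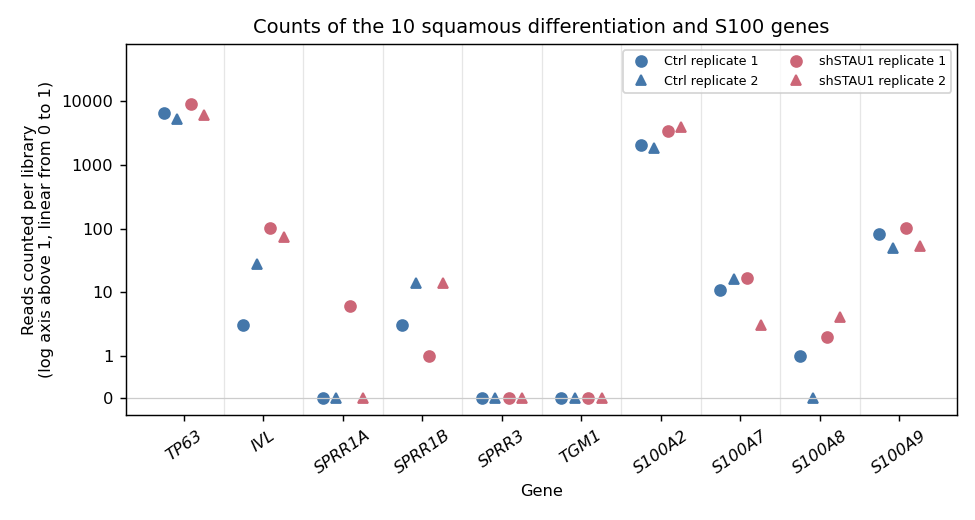
Reads counted in each library (vertical axis, logarithmic above 1 and linear from 0 to 1) for the 10 genes. Blue marks are Ctrl and red marks shSTAU1, circles replicate 1 and triangles replicate 2. S100A2 and IVL lie above both Ctrl marks in each shSTAU1 library, and TGM1 and SPRR3 are at 0 in all 4.

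S100A2, a nuclear and cytoplasmic calcium-binding protein of basal keratinocytes that is known as a p63 target, was read 2046 and 1871 times in Ctrl and 3452 and 3942 times in shSTAU1. Both shSTAU1 libraries lay above both Ctrl libraries, by more than the libraries of a group differed from each other. Its mean level of 59.0 ± 2.61 CPM in Ctrl became 105 ± 8.76 CPM with STAU1 knocked down (SD, n = 2 each). The log2 fold change was 0.84 (SE 0.14, edgeR quasi-likelihood adjusted p = 0.0358), or 1.79-fold. The size of the rise was stable, from 0.74 to 0.93 on the log2 scale with any 1 library left out, but the call was not. It was lost without Ctrl replicate 1 (adjusted p = 0.490, in a fit where no gene passed, STAU1 included), without Ctrl replicate 2 (adjusted p = 0.191) and without the filter on low counts (adjusted p = 0.0989). In GRCh38 the gene spans bases 153561108 to 153567890 of chromosome 1 (minus strand).

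IVL, the involucrin that forms the scaffold of the cornified envelope, had 3 and 28 counts in Ctrl and 101 and 73 counts in shSTAU1. The shSTAU1 libraries were the higher 2 of the 4, and the counts of the Ctrl libraries differed from each other by a larger ratio than those of the shSTAU1 libraries. In CPM the levels were 0.472 ± 0.542 in Ctrl and 2.48 ± 0.591 in shSTAU1 (SD, n = 2 each). The fitted value of 2.39 on the log2 scale (SE 0.78) had an unadjusted p of 0.0167 in edgeR's test, and an adjusted p of 0.120 after correction over all genes. Its size depended on the Ctrl libraries, with 4.75 from Ctrl replicate 1 alone as the control (without Ctrl replicate 2, adjusted p = 0.0314) and 1.53 without Ctrl replicate 1 (adjusted p = 0.490). DESeq2 called the rise (log2 fold change 2.39, adjusted p = 0.0254), as did the fits without shSTAU1 replicate 1 (2.14, adjusted p = 0.0125) and without shSTAU1 replicate 2 (2.61, adjusted p = 0.000489). IVL lies on chromosome 1 from 152908545 to 152911886, on the plus strand.

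The small proline-rich members had few or no reads counted. SPRR1B, an envelope precursor that is induced early in squamous differentiation, had 3 and 14 counts in Ctrl and 1 and 14 counts in shSTAU1. Both replicate 2 libraries were above both replicate 1 libraries whatever the shRNA, and the groups overlapped. Its log2 fold change of -0.27 had a standard error of 1.13 (adjusted p = 0.908, edgeR), and the sign turned without Ctrl replicate 2 (1.23) and without shSTAU1 replicate 1 (0.62). SPRR1A, its near-identical neighbour, had 6 counts in shSTAU1 replicate 1 and 0 in the other libraries, so its reads came from the library in which SPRR1B was lowest. SPRR3, which is the main SPRR protein of oral and esophageal lining, had 0 counts in all 4 libraries.

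TGM1, the membrane-anchored transglutaminase 1 that cross-links the envelope, also had 0 counts in all 4 libraries. A count of 0 allows up to 3 counts per library, or 0.0849 to 0.0916 CPM, and this limit covers counting error only. No exon of TGM1 overlaps an exon of another gene in GENCODE 29, and of 19934 protein-coding genes 25.1% had no read. The libraries were made with an exome capture kit, the probes of which were not used here, so whether a gene at 0 was covered was not tested. Of the other transglutaminases, TGM3 and TGM5 had no read. TGM2, the tissue transglutaminase, which is not part of the cornified programme, was abundant and fell from 649 ± 44.2 CPM to 393 ± 29.7 CPM (SD, n = 2 each), with a log2 fold change of -0.72 (SE 0.13, edgeR quasi-likelihood adjusted p = 0.0366). This call was lost without Ctrl replicate 1 or 2, without the filter (adjusted p = 0.0989) and with the length and GC correction (adjusted p = 0.0604).

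None of the 3 inflammatory S100 members was called. S100A9 and S100A7 overlapped between the groups, and S100A8 had 7 counts in all. S100A9 had 82 and 50 counts in Ctrl and 104 and 53 counts in shSTAU1, with replicate 1 above replicate 2 in both groups. Its log2 fold change was 0.18 (SE 0.46, edgeR adjusted p = 0.842), and the sign turned without Ctrl replicate 2 (-0.12) and without shSTAU1 replicate 1 (-0.39). S100A8, its partner in calprotectin, was near the floor, with 1 and 0 counts in Ctrl and 2 and 4 counts in shSTAU1. The shSTAU1 libraries were the higher ones, but the gene had too few reads to be tested. From the summed counts of 1 and 6, the ratio of shSTAU1 to Ctrl was 5.47 with an exact 95% interval from 0.664 to 252, which covers counting error only. S100A7, or psoriasin, had 11 and 16 counts in Ctrl and 17 and 3 counts in shSTAU1, a log2 fold change of -0.51 (SE 0.84, edgeR adjusted p = 0.747) that became 0.25 without shSTAU1 replicate 2. Per length, S100A9 stood above S100A8 in every library, at 2.60 to 5.18 CPM per kb of exon against 0 to 0.113 CPM per kb. The myeloid markers, which S100A8 and S100A9 accompany in neutrophils and monocytes, were at or near 0 apart from CD14 (5 and 5 counts in Ctrl, 40 and 15 in shSTAU1, edgeR adjusted p = 0.111) and ITGAM (1, 27, 3 and 10 counts in Ctrl replicates 1 and 2 and shSTAU1 replicates 1 and 2). CD68, AIF1 and all but 1 read of PTPRC were absent.

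TP63 was the most read of the 10 genes, with 6559 and 5195 counts in Ctrl and 9056 and 6212 counts in shSTAU1. In CPM the libraries overlapped, as Ctrl replicate 1 (195 CPM) lay above shSTAU1 replicate 2 (176 CPM), and replicate 1 was the higher library in both groups. Ctrl averaged 177 ± 25.7 CPM and shSTAU1 averaged 218 ± 59.6 CPM (SD, n = 2 each). The fitted log2 fold change was 0.30 and stayed short of the threshold (SE 0.20, edgeR adjusted p = 0.390). Without shSTAU1 replicate 1 it was 0.0014, and without shSTAU1 replicate 2 it was 0.55 and passed (adjusted p = 0.00432). Gene-level counts do not separate the p63 isoforms with and without the transactivation domain. TP63 lies on chromosome 3 from 189631416 to 189897279, on the plus strand. Its relative TP73 had a log2 fold change of 0.45 (edgeR adjusted p = 0.349) and overlapped between the groups.

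Per kb of exon, S100A2 was the highest of the 10 genes, at 36.5 to 38.8 CPM per kb in Ctrl and 63.3 to 71.2 in shSTAU1. TP63 followed with 21.3 to 34.9 CPM per kb over the 4 libraries, below S100A2 in each of them. S100A9 came next at 2.60 to 5.18 CPM per kb. IVL (0.0414 to 1.35), S100A7 (0.158 to 0.912), SPRR1B (0.0463 to 0.690), SPRR1A (0 to 0.638) and S100A8 (0 to 0.113) came below, and their ranges over the libraries overlapped with those of their neighbours in this order. Probes of the capture kit and the exons of the annotation used here can move these levels.

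**Figure D2:**
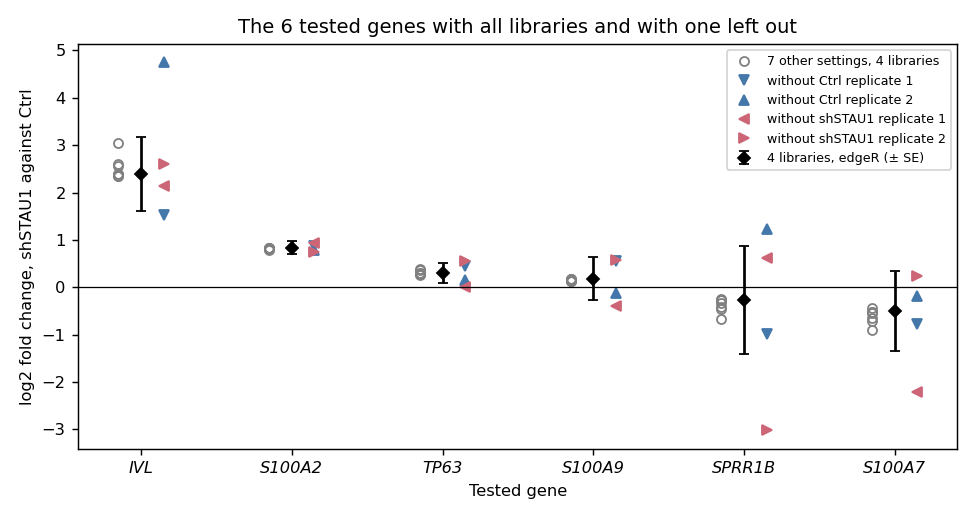
log2 fold change of shSTAU1 against Ctrl (vertical axis) for the 6 tested genes. Black diamonds are the edgeR fit of the 4 libraries with its standard error, open circles are 7 other settings with 4 libraries, and triangles leave out the library named in the key. S100A2 stays between 0.74 and 0.93 without any 1 library, IVL spreads from 1.53 to 4.75, and S100A9, SPRR1B and S100A7 lie on both sides of 0.

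The S100 genes were then examined as a family that included S100A2, S100A7, S100A8 and S100A9, and 3 of its members rose after STAU1 knockdown. The rise of S100A2 was described above. Of 21 family members listed, 11 were tested and 3 of these rose (S100A6, S100A2 and S100A10), against 1.13% of all genes tested, while none passed as lower (0 at an unadjusted p under 0.05 too, and 0 by DESeq2). In 7 of the 11, both shSTAU1 libraries lay above both Ctrl libraries, against 28.5% of all genes tested. In none did they lie below, against 28.0%. The median log2 fold change of the 11 was 0.55, beside 0.01 for all genes tested. This list, like the other lists, was chosen with earlier results of these data known. Its shares and medians, here and below, therefore describe the data and are no test of the family. S100A6, calcyclin, had 1080 and 934 counts in Ctrl and 2717 and 2136 counts in shSTAU1, and was the S100 gene with the largest fitted change (log2 fold change 1.19, SE 0.17, edgeR adjusted p = 0.0328). S100A10, the light chain of the annexin A2 complex, had 1367 and 1155 counts against 2286 and 2163 counts (log2 fold change 0.74, SE 0.15, edgeR adjusted p = 0.0474). These calls were lost without either Ctrl library (adjusted p from 0.105 to 0.490) and without the filter (0.0988 and 0.121), and that of S100A10 also with library size in place of TMM (0.0567).

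A further 3 S100 genes had an unadjusted p under 0.05 without passing the correction, which makes 6 of the 11, all higher, against 12.9% of all genes tested in that direction. S100A11, which annexin A1 binds in the envelope, had 3165 and 2601 counts in Ctrl and 4482 and 4180 counts in shSTAU1 (log2 fold change 0.51, adjusted p = 0.0867). S100A13, which aids the release of proteins without a signal peptide, had 112 and 104 counts against 242 and 194 counts (0.93, adjusted p = 0.0926). S100A14 had 2208 and 1603 counts against 3220 and 2648 counts (0.55, adjusted p = 0.129). S100A4 (56 and 48 against 100 and 80 counts) and S100A16 (2647 and 2683 against 2831 and 3825 counts) had adjusted p of 0.262 and 0.402. S100A3 (47 and 50 against 50 and 26 counts) and S100A7 were the tested members with fitted values below 0. S100A9, described above, was the remaining tested member. The 10 members not tested had at most 12 counts in a library, S100A5 with 3 to 5 and S100P with 12 in shSTAU1 replicate 1 and 0 to 3 elsewhere, and S100B, S100G and S100A7L2 had none.

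S100 transcripts are short, and the libraries were also compared after their trends with transcript length and GC content were removed. Over the 11 S100 genes the median log2 fold change was then 0.52, beside 0.06 for all genes tested. S100A6 (1.15, adjusted p = 0.0309) and S100A2 (0.80, adjusted p = 0.046) passed, and S100A10 (0.69, adjusted p = 0.0559) did not. The fitted value of IVL was 2.34 (adjusted p = 0.120) and that of TP63 0.38 (adjusted p = 0.281) in the same fit.

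**Figure D3:**
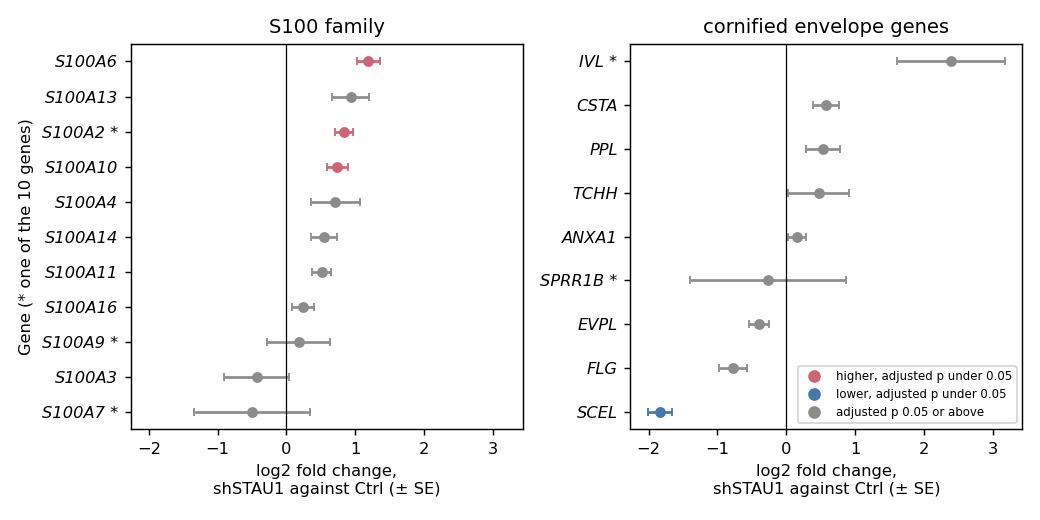
log2 fold change of shSTAU1 against Ctrl (horizontal axis, bars are standard errors) for the tested S100 genes (left) and tested cornified envelope genes (right), with stars on the 10 genes. Red passed an adjusted p of 0.05 as higher, blue as lower, grey did not pass. Of the 11 S100 genes 9 lie above 0, and the envelope genes spread from -1.83 (SCEL) to 2.39 (IVL).

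Of 4 listed receptors of S100A8 and S100A9, 3 were tested and 1 fell, against 1.48% of all genes tested. TLR4, the innate receptor through which calprotectin signals, fell from 320 and 342 counts in Ctrl to 58 and 120 counts in shSTAU1 (log2 fold change -1.98, SE 0.35, edgeR quasi-likelihood adjusted p = 0.0366). The call was lost without Ctrl replicate 1 or 2 and without the filter (adjusted p = 0.105). The other receptors were AGER, which had no read, BSG (log2 fold change 0.43, adjusted p = 0.126) and CD36 (0.66, adjusted p = 0.615).

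Cornified envelope genes gave 1 call, a fall. Of 32 listed, 14 had no read, 20 had at most 3 counts in every library and 9 were tested. Of these 9, 1 was lower and none higher, against 1.48% and 1.13% of all genes tested. At an unadjusted p under 0.05 there were 2 higher and 3 lower of the 9, against 12.9% and 11.6% of all genes tested, and DESeq2 called 1 higher and 2 lower, against 6.40% and 5.59%. The gene that fell was SCEL, which encodes sciellin, with 3350 and 2778 counts in Ctrl and 792 and 1027 counts in shSTAU1 (log2 fold change -1.83, SE 0.17, edgeR adjusted p = 0.0108). Its call was lost without Ctrl replicate 1 (adjusted p = 0.490) and without the filter (0.0514). FLG, the filaggrin of the granular layer, had 1548 and 1767 counts against 1197 and 847 counts, with both shSTAU1 libraries lower and an adjusted p of 0.0765 (log2 fold change -0.78). CSTA, the protease inhibitor cystatin A, had 1125 and 878 against 1381 and 1783 counts (0.58, adjusted p = 0.114), and EVPL, envoplakin, 1779 and 1940 against 1575 and 1411 counts (-0.40, adjusted p = 0.155). The partner of envoplakin, PPL or periplakin, overlapped between the groups, with 4205 and 3624 against 7620 and 4366 counts (0.54, adjusted p = 0.227). Loricrin, SPRR2A, SPRR2B, SPRR2E, SPRR2G, SPRR4, CRNN, CDSN and DSG1 were among the genes with no read. The median log2 fold change of the 9 tested genes was 0.16, beside 0.01 for all genes tested.

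Along chromosome 1, the 3 genes of the epidermal differentiation complex called higher were S100 genes, as were 11 of the 15 tested there. From S100A10 to S100A1 (chr1:151982915-153632039 of GRCh38) GENCODE 29 places 64 protein-coding genes, 8 of the 10 genes among them. Of the 64, 28 had no read, 42 had at most 3 counts in every library and 15 were tested, 11 of them S100 genes. The tested genes between the flanking S100 clusters were TCHH, FLG, IVL and SPRR1B, and none of these passed with edgeR. IVL nevertheless had the largest fitted value of the 15 (log2 fold change 2.39) and was called higher by DESeq2 (adjusted p = 0.0254). Over the 15 the median log2 fold change was 0.51, beside 0.03 for all protein-coding genes tested, and this median rests mostly on the S100 genes already described.

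**Figure D4:**
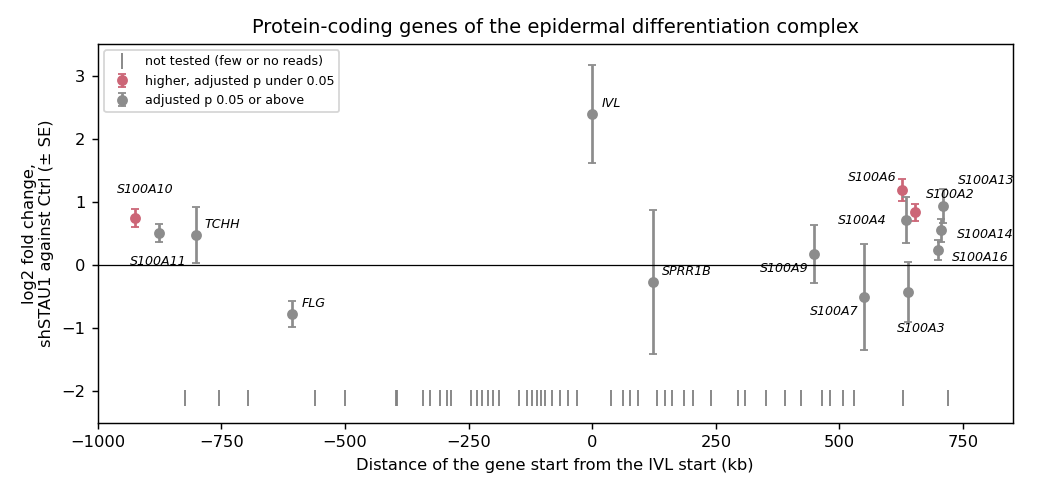
log2 fold change of shSTAU1 against Ctrl (vertical axis, bars are standard errors) against the distance of each gene's start from the IVL start in kb, for the protein-coding genes of the epidermal differentiation complex. Points are the 15 tested genes, red where the adjusted p was under 0.05, and ticks near the bottom are the genes not tested. The 3 red points, S100A10, S100A6 and S100A2, lie among the S100 genes toward the ends, and the stretch around IVL holds mostly untested genes.

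Transcription regulators of squamous cells gave no call. Of 22 listed, 19 were tested and 0 passed with edgeR's quasi-likelihood test, as with DESeq2 and limma-voom, while 4 had an unadjusted p under 0.05, a share near the 24.5% of all genes tested. ZNF750, a p63-induced factor of terminal differentiation, had 6 and 12 counts in Ctrl and 72 and 24 counts in shSTAU1 (log2 fold change 2.32, adjusted p = 0.109). CEBPA, a factor of suprabasal cells, had 63 and 80 against 154 and 127 counts (0.89, adjusted p = 0.143). In the other direction, KLF4, a factor of barrier formation, had 76 and 38 against 30 and 19 counts (-1.29, adjusted p = 0.182), and GRHL1 had 186 and 140 against 112 and 73 counts (-0.89, adjusted p = 0.155). The median log2 fold change was 0.20.

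A list of known p63 target genes, which did not include S100A2 and ZNF750 described above, gave 1 call, a rise. Of 14 listed, 13 were tested and 1 rose, against 1.13% of all genes tested, while none passed as lower, against 1.48%. At an unadjusted p under 0.05 in edgeR's test, 3 were higher and 1 lower, against 12.9% and 11.6% of all genes tested. The gene that passed was KRT5, the basal keratin, with 108820 and 110892 counts in Ctrl and 191041 and 172929 counts in shSTAU1 (log2 fold change 0.65, SE 0.12, edgeR adjusted p = 0.0408). Its call was lost without either Ctrl library, without the filter (adjusted p = 0.0989) and with library size in place of TMM (0.0523). Its partner KRT14 had 26979 and 18317 against 56578 and 31857 counts, higher in both shSTAU1 libraries but short of the threshold (0.89, adjusted p = 0.112). ITGB4, the integrin of hemidesmosomes, had 53288 and 48971 against 39528 and 28402 counts (-0.67, adjusted p = 0.0765), and FGFR2 had 5437 and 4999 against 8380 and 6624 counts (0.45, adjusted p = 0.131). DLX3, a homeobox factor of suprabasal cells, had 58 and 69 against 125 and 101 counts (0.75, adjusted p = 0.219). The median log2 fold change of the 13 was 0.08, and the list shares DLX3 with that of the transcription regulators.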

How the data were processed

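RNA was extracted with TRIzol and libraries were made with the TruSeq RNA Exome kit, per the labels. The authors deposited whole-number counts per gene without normalization. The submitters' processing notes name Partek and the build hg38. How reads were aligned and counted, with or without strand, and against which annotation is not given in the sources used here. No sample column was left unmapped.

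The count table was filtered with filterByExpr of edgeR 4.0.16 (R 4.3.3, minimum count 10) and scaled by TMM. Groups were then compared by quasi-likelihood F tests, and p-values were adjusted by Benjamini and Hochberg's method over the 14303 genes left, at a threshold of 0.05. The standard errors given for edgeR fits were derived from the test, as the absolute log2 fold change divided by the square root of F. The biological coefficient of variation was 19.1%. For 1 gene alone, exact permutation of 2 against 2 libraries gives no p below 0.333. Within Ctrl and within shSTAU1 the libraries were not duplicates, with chi-square values of 23.4 and 56.4 per degree of freedom. Positions and lengths are from GENCODE 29 on GRCh38, which holds 58561 of the 67008 identifiers.

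Named genes were the 10 genes, STAU1, the S100 family and, of each list, the genes past the threshold and up to 4 others with the smallest p. PPL, ITGAM, KRT13, KRT4 and genes given only as unread or nearly unread were named after their values were seen. The members and lists were chosen with earlier results of these data known. Alternatives were DESeq2 1.42.0, limma-voom (limma 3.58.1), library size only, no filter, the replicate number as a block, removal of each library's smooth trend with transcript length and GC content (mgcv 1.9.3, covering 99.0% of tested genes), other thresholds and leaving out each library, where the lone library of a group is assumed to vary like the others. The models were tested on simulated counts. Some items that these rules select are not reported here.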

Additional observations from a re-analysis of the deposited data

How the results depend on the processing

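Over all genes, 372 passed with edgeR, 404 with library size only, 363 with limma-voom and 293 with the length and GC correction, whereas DESeq2 called 1449, an adjusted p under 0.10 gave 1585, the fold change criterion (1.5, at an unadjusted p under 0.05) gave 2098 and the fit without a filter 11. Leaving out 1 library gave 0 to 2780 calls, with 0 without Ctrl replicate 1 (1502 at an unadjusted p under 0.05), 64 without Ctrl replicate 2, 2780 without shSTAU1 replicate 1 and 2203 without shSTAU1 replicate 2. The cause was not tested.

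Of the 10 genes, 1 passed, against 2 with DESeq2 and with the fold change criterion, 0 without the filter and 0 to 3 with 1 library left out. IVL passed with DESeq2 (2.39) and by the fold change criterion (2.39) and ranged from 1.53 to 4.75 with 1 library left out. S100A2 did not pass without the filter (0.83) and ranged from 0.74 to 0.93, TP63 from 0.0014 to 0.55, S100A9 from -0.39 to 0.58, S100A7 from -2.21 to 0.25 and SPRR1B from -3.02 to 1.23. Signs turned for SPRR1B without Ctrl replicate 2 (1.23) and without shSTAU1 replicate 1 (0.62), for S100A9 in the same fits (-0.12 and -0.39) and for S100A7 without shSTAU1 replicate 2 (0.25). Of 78 such values for the tested genes, 60 kept their direction and side of the threshold. The other thresholds reuse the main fit, so their direction could not change. S100A7, S100A9 and SPRR1B, which no setting called, gave 12, 11 and 11 of the 60. The total is thus no measure of how stable a call was.

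Of the listed genes, 3 S100 genes passed, against 5 at an adjusted p under 0.10, 2 with library size only, 2 with the correction, 0 without the filter and 0 to 6 with 1 library left out. For cornified envelope genes the count of 1 became 3 with DESeq2, 2 at 0.10, 3 by the fold change criterion, 0 without the filter and 0 to 5 with 1 library left out. For p63 targets the count of 1 became 0 with library size only, 3 with DESeq2, 2 at 0.10, 3 by the fold change criterion, 0 without the filter and 0 to 4. For transcription regulators 0 became 4 by the fold change criterion and 0 to 6. With 1 library left out, log2 fold changes lay on both sides of 0 for CD36 (-0.082 to 1.15), CDH1 (-0.73 to 0.048), PDGFRA (-2.70 to 0.21), PDGFRB (-1.47 to 0.23) and SMPD1 (-0.44 to 0.061).

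The groups share replicate numbers, but no source says that a number marks a shared culture or day, and the correlation of same-numbered deviations was 0.271 over 2 pairs. Blocking on the replicate number gave 4087 calls over all genes, or 4006 with the length and GC correction too. The block gave 3 of the 10 genes in either fit, with IVL at 2.60 and 2.57 and TP63 at 0.28 and 0.36, beside 6 and 6 S100 genes, 6 and 5 envelope genes, 8 and 8 transcription regulators and 5 and 4 p63 targets.

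With 2 libraries per group the spread rests on few degrees of freedom, and genes under about 10 counts could not be tested.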

Other observations

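Further lists of suprabasal keratinocytes gave no call with edgeR's quasi-likelihood test. Of 9 barrier lipid enzymes, 7 were tested, and 1 was higher and 2 were lower at an unadjusted p under 0.05, which 24.5% of all genes tested reached in either direction. ELOVL4, which makes very long chain fatty acids, had 862 and 754 counts in Ctrl and 1312 and 1383 in shSTAU1 (log2 fold change 0.66, adjusted p = 0.0646). ABCA12, the lipid transporter of lamellar granules, had 201 and 204 against 107 and 71 counts (-1.26, adjusted p = 0.0684), and ALOXE3, a lipoxygenase of the barrier, 321 and 241 against 179 and 158 counts (-0.81, adjusted p = 0.106). SMPD1, acid sphingomyelinase, overlapped between the groups with 224 and 306 against 249 and 237 counts (-0.21, adjusted p = 0.646).

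Of 8 suprabasal keratins, KRT1, KRT2 and KRT76 had no read and 2 were tested, with none at an unadjusted p under 0.05. KRT10, the keratin of the spinous layer, had 313 and 225 against 337 and 426 counts (0.43, adjusted p = 0.319), and KRT80 had 1387 and 1977 against 1560 and 1186 counts (-0.37, adjusted p = 0.336). KRT13, the suprabasal keratin of oral lining, had 37 counts in shSTAU1 replicate 1, 4 in shSTAU1 replicate 2 and 0 in both Ctrl libraries, and was not tested. KRT4, which pairs with KRT13, had 11 counts in Ctrl replicate 1, 7 in shSTAU1 replicate 1 and 0 in the others.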
